A study of Mus musculus with 6 samples.

Results

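Genes of DNA replication and of the step from G1 into S phase were followed in mouse hepatic progenitor cells, immature liver epithelial cells that can form both hepatocytes and bile duct cells. The set held 59 genes chosen by name and sorted by role into 7 steps, from G1/S control to chromatin assembly. Probes for 56 of them were listed under those symbols, 92 probes in all among 25697 on the array, and 53 genes had a probe that at least 3 of the 6 arrays detected (detection p under 0.05). These 53 genes were tested, by 76 probes, out of 8652 genes tested in all. The livers were controls from C57BL/6 mice carrying 1 of the floxed genes: 3 samples were Egfr fl/fl and 3 were Met fl/fl, and each was hybridised to a 1-colour Illumina bead array. Both genes encode growth factor receptors, Egfr that for EGF and Met that for HGF. A floxed allele is flanked by recombination sites and stays intact unless a recombinase acts on it, and the labels name no recombinase, age or treatment. Nor do the labels tell if the samples of 1 genotype are different animals or repeated cultures. The p-values thus reflect the scatter of these samples alone, which may be technical.

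Before a cell copies its DNA, D-type and E-type cyclins with their kinases inactivate the retinoblastoma protein, which frees E2F factors to drive genes of replication. In G1 the origin recognition complex, Cdc6 and Cdt1 load the ring of Mcm2 to Mcm7 on DNA, and in S phase Cdc45 and the GINS complex turn that ring into an active helicase. Polymerases, the Pcna clamp and enzymes of nucleotide supply then carry out synthesis. In adult liver most cells rest outside the cycle, whereas progenitor cells in culture divide.

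The arrays had mean deposited intensities of 241 to 398 units and detected 43.8% to 45.3% of probes. Over tested probes, Pearson r was 0.967 to 0.992 within a group and 0.891 to 0.921 between groups, as a description. Of 12 biliary and progenitor epithelial markers 11 had a probe and 10 were detected on some array, whereas the hepatocyte marker Alb, the leukocyte marker Ptprc and the endothelial marker Cdh5 were detected on no array. The summed intensity of 12 stellate cell and fibroblast markers was 432 to 655 units in Egfr fl/fl against 34 to 61 in Met fl/fl. Of those 12 genes 5 were detected on some array, and Col1a1, Lrat and Pdgfra on none. Acta2 alone, a smooth muscle actin, gave 366 to 601 units of the Egfr fl/fl sums. In the same order, the sum of 12 hepatocyte markers, 5 of them detected, was 2811 to 3180 and 4551 to 7647 units, that of 11 macrophage and leukocyte markers, 3 of them detected, 317 to 617 and 1198 to 1599, that of 12 endothelial markers, 5 of them detected, 22 to 84 and 74 to 79, and that of the biliary and progenitor markers 25580 to 35592 and 18049 to 28896. The hepatocyte sums were mostly Ttr and Hnf4a. All sums here are of deposited intensities, without normalization. After normalization Ttr did not pass (log2 difference, Met fl/fl minus Egfr fl/fl, 0.32, limma adjusted p = 0.139), whereas Hnf4a did (1.43, 1.39e-05). Apoa1 was higher in Met fl/fl (1.40, limma adjusted p = 0.000304), with no Egfr fl/fl array detecting it. Serpina1a was higher in Egfr fl/fl (-0.70, 0.00858), with no Met fl/fl array detecting it. Each passed the detection filter through the group in which it was higher, so those p-values are no independent support. G6pc did not pass (0.185, 0.490). On the biliary and progenitor list 9 genes were tested and 4 did not pass. There were 5 calls for Egfr fl/fl and 0 for Met fl/fl (18.6% and 22.8% of all genes tested). The 5 were Sox9 (-1.88), Krt7 (-1.53), Cdh1 (-1.37), Krt8 (-0.82) and Krt18 (-0.49). The leukocyte sums were mostly Cd14, at 274 to 534 units in Egfr fl/fl against 1178 to 1565 in Met fl/fl. Csf1r was higher in Egfr fl/fl (-0.75, limma adjusted p = 0.0194), with no Met fl/fl array detecting it. It passed the detection filter through Egfr fl/fl, so that p-value is no independent support. The part of other cell types in the differences below was not tested. Egfr fl/fl replicate 3 stood apart from replicates 1 and 2: its value was closer to the mean of Met fl/fl in 7 of the 21 replication and G1/S genes past the threshold (33.3%) and in 15.2% of all genes past it.

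Replication and G1/S genes differed between the genotypes in both directions, and most moved by less than 2-fold. Of the 53 tested genes 9 were higher in Met fl/fl, 12 in Egfr fl/fl (limma, Benjamini-Hochberg adjusted p under 0.05), while 32 did not pass. Over all genes tested 41.4% passed, 22.8% higher in Met fl/fl, 18.6% in Egfr fl/fl, against 39.6% of the replication and G1/S genes, so the share was near the background. At 2-fold or more 4 of the 53 passed, namely Ccnd2, Ccne2, E2f1 and Mcm7, where the share over all genes was 15.7%. The genotypes did not overlap in 28 of the 53, against 52.0% of all genes. The median log2 difference, Met fl/fl minus Egfr fl/fl throughout, was 0.015 for these genes and 0.067 for all genes. Of the 53 genes 49 were detected on all 6 arrays. Ccne2 and Mcm7 were detected on 3 Egfr fl/fl arrays and 1 Met fl/fl array, so they passed the detection filter through the group in which they were higher. Their p-values are thus no independent support, though both genes are in the counts above. Prim1, with 3 and 2 arrays, would have passed the filter through Egfr fl/fl alone. In a preparation of many cells, fewer cells in a phase and less RNA per cell cannot be told apart. Without Egfr fl/fl replicate 3, 10 genes were higher in Met fl/fl, 17 in Egfr fl/fl, and all 21 calls were kept. The count higher in Met fl/fl fell to 4 without Egfr fl/fl replicate 1, to 5 without Met fl/fl replicate 2 or 3, and to 2 with median scaling of the arrays.

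**Figure D1:**
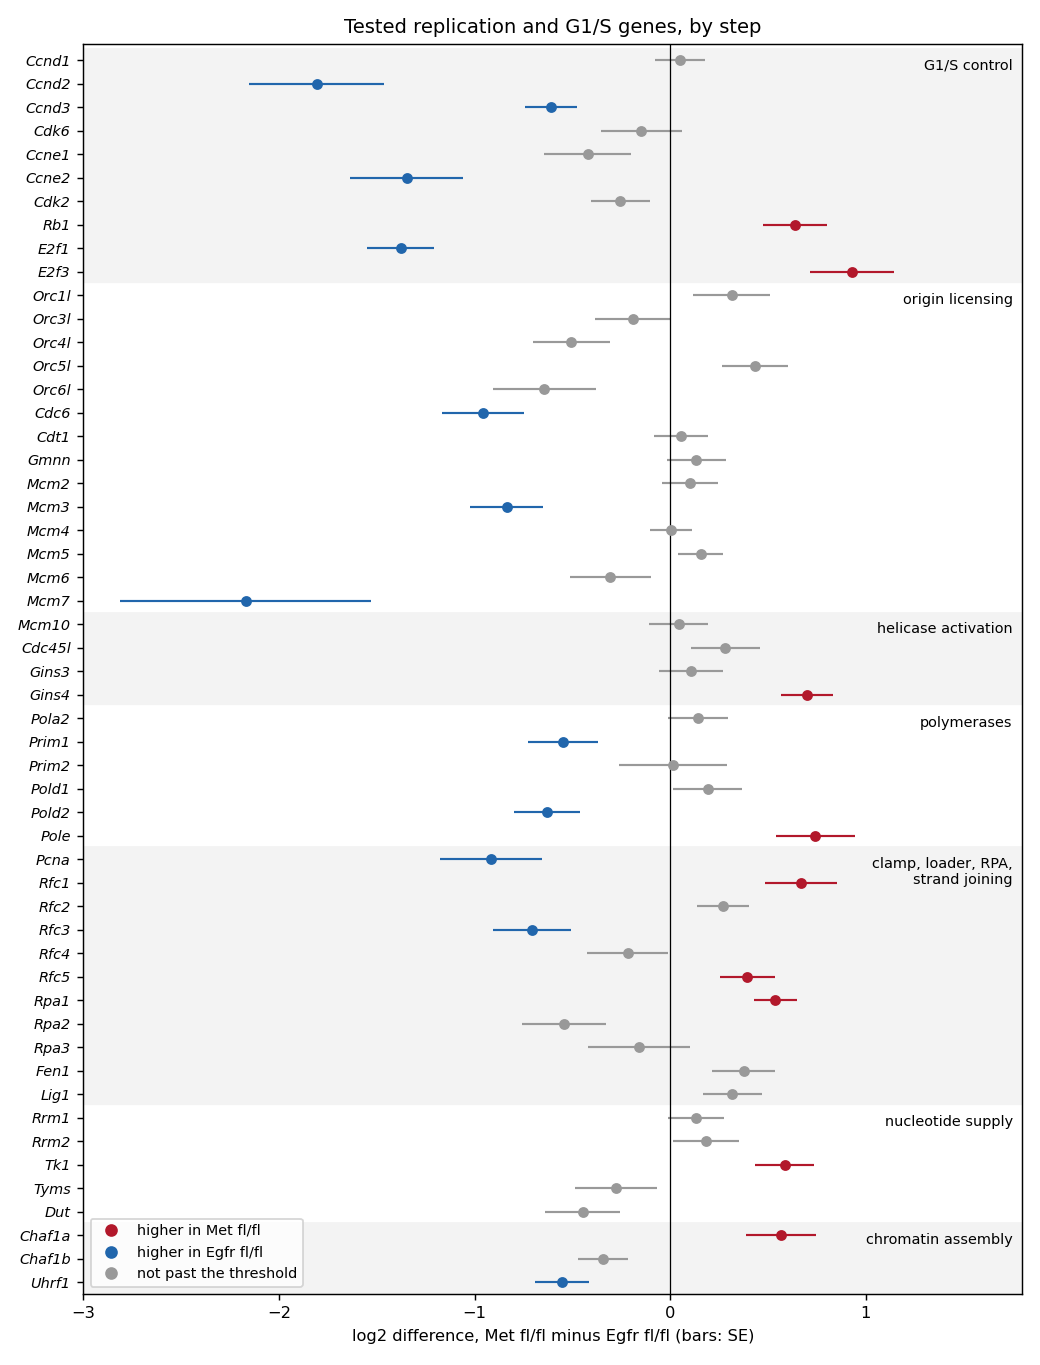
Log2 difference of each tested gene (Met fl/fl minus Egfr fl/fl, horizontal axis, bars SE, 3 arrays per group), grouped by step. The 4 genes past the threshold at 2-fold or more (Ccnd2, Ccne2, E2f1, Mcm7) all lie to the left of 0. Of these, Ccne2 and Mcm7 passed the detection filter through the Egfr fl/fl arrays.

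Genes that control entry into S phase held 3 of those 4 genes. Of 10 tested members 2 were higher in Met fl/fl, 4 in Egfr fl/fl (22.8% and 18.6% of all genes). Differences ran from -1.81 to 0.93, with a median of -0.34. E2f1, an activating E2F factor, read a log2 intensity of 9.47, 9.55 and 9.39 on Egfr fl/fl replicates 1 to 3 and 7.79, 8.12 and 8.36 on the Met fl/fl arrays. The groups were far apart, and E2f1 was 2.60-fold higher in the Egfr fl/fl samples (log2 difference -1.38 ± 0.17 SE, adjusted p = 0.000176). E2f3, another activating E2F factor, ran the other way, with 5.54, 6.15 and 5.67 in Egfr fl/fl against 6.73, 6.55 and 6.88 in Met fl/fl. Every Met fl/fl array lay above every Egfr fl/fl array, a difference of 0.93 ± 0.22 (adjusted p = 0.00713). The retinoblastoma gene Rb1, whose protein restrains E2F factors, read 7.77, 7.81 and 7.70 in Egfr fl/fl against 8.42, 8.19 and 8.58 in Met fl/fl, again without overlap (0.64 ± 0.16, adjusted p = 0.0118). Its second probe gave 0.30 (adjusted p = 0.435).

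Of the 3 D-type cyclins, partners of Cdk4 and Cdk6 in early G1, Ccnd2 and Ccnd3 were higher in Egfr fl/fl and Ccnd1 did not pass. Ccnd2 read 11.61, 11.72 and 10.12 in Egfr fl/fl against 9.39, 9.24 and 9.39 in Met fl/fl. Replicate 3 of Egfr fl/fl lay between the other arrays of its group and the Met fl/fl arrays, and Ccnd2 was 3.50-fold higher in Egfr fl/fl (-1.81 ± 0.35, adjusted p = 0.00248). The difference was -2.33 without that array and -0.77 with it as the only Egfr fl/fl array, and it passed both times. Ccnd3 read 11.20, 10.97 and 11.33 in Egfr fl/fl against 10.44, 10.59 and 10.65 in Met fl/fl, with no overlap (-0.61 ± 0.13, adjusted p = 0.00467). Its other probes gave -0.77 (adjusted p = 0.0501) and -0.07 (0.759). Ccnd1 read 12.30, 12.32 and 12.64 in Egfr fl/fl against 12.34, 12.50 and 12.58 in Met fl/fl, so the groups overlapped (0.05 ± 0.13, adjusted p = 0.784), and of its other probes 1 gave 0.17 (0.325) and 1 gave -0.65 (0.0601). Ccne2, an E-type cyclin of the G1/S step, read 6.81, 6.63 and 5.63 in Egfr fl/fl against 5.25, 4.90 and 4.88 in Met fl/fl. With detection on 1 Met fl/fl array the difference is a lower bound, at least 2.48-fold higher in the Egfr fl/fl samples (fitted -1.35 ± 0.29, adjusted p = 0.00475), and Egfr fl/fl replicate 3 was again the lowest of its group. Such bounds, used where some array of the dimmer group did not detect a probe, compare the brighter mean with a floor: on each array, the lowest signal called detected, or the probe's own value if that was higher. The other E-type cyclin, Ccne1, differed by -0.42 (adjusted p = 0.159), the S-phase kinase Cdk2 by -0.26 (0.199) and Cdk6 by -0.15 (0.601). Cdk4 had no probe under that symbol. The calls for Ccnd3 (adjusted p = 0.0868) and Rb1 (0.142) ended with median scaling, that for Rb1 also without Met fl/fl replicate 3 (0.0593) and with the mean of its probes (0.0866), and that for Ccne2 with Egfr fl/fl replicate 3 alone (-0.63, 0.0678).

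**Figure D2:**
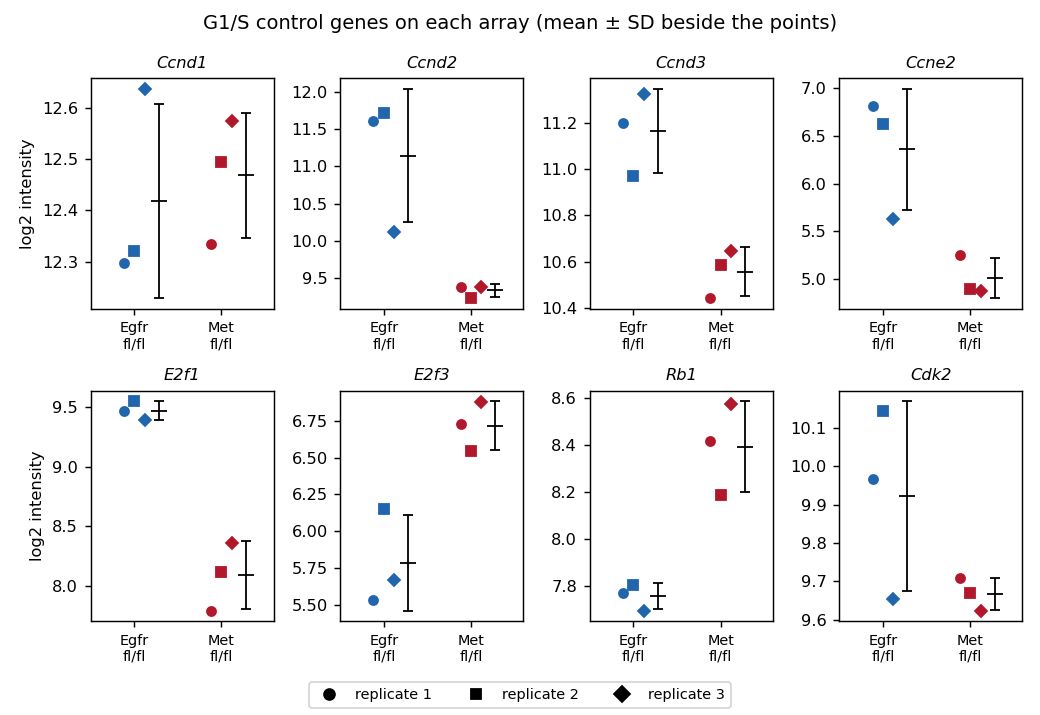
Log2 intensity of 8 G1/S control genes on each array (points, shape by replicate; each panel has its own vertical axis), with the group mean ± SD. E2f1 and Ccnd3 are lower and E2f3 and Rb1 higher on all 3 Met fl/fl arrays, Ccnd2 and Ccne2 of Egfr fl/fl replicate 3 lie between the groups, and Ccnd1 overlaps.

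E2F factors bind promoters of many replication genes, and the promoters of the set were searched for the E2F words TTTCCCGC, TTTCGCGC, TTTGCCGC and TTTGGCGC, on both strands, in the 250 bases before and 50 after each start in the RefSeq table for build GRCm38.p6. That source held a promoter for 47 of the 59 genes, and 17 of the 47 (36.2%) contained a word, against 2.60% of 27025 genes in all. The words can overlap one another. A word was present in 5 of 10 promoters of genes higher in Egfr fl/fl, in 1 of 6 of genes higher in Met fl/fl and in 9 of 27 of genes that did not pass. A match describes letters and is not evidence of binding. The windows below show the words, in capitals, for the 6 genes past the threshold that held one and for Mcm6, whose probes are described further on; each is written 5′ to 3′ along the strand of the gene. They lie at chr11:98907968-98908065 (plus strand, Cdc6), chr1:20820283-20820338 (minus, Mcm3), chr5:138171854-138172093 (minus, Mcm7), chr5:151651179-151651263 (minus, Rfc3), chr17:56304083-56304180 (plus, Uhrf1), chr13:29986034-29986119 (minus, E2f3) and chr1:128359700-128359860 (minus, Mcm6).
Cdc6: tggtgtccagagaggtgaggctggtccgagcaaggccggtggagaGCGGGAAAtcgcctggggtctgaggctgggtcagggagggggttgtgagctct
Mcm3: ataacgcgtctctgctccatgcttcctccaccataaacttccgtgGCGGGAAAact
Mcm7: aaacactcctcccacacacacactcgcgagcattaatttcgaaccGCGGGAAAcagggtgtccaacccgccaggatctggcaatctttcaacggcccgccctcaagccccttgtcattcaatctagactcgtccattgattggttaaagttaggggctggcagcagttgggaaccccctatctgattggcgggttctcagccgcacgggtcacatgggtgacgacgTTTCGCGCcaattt
Rfc3: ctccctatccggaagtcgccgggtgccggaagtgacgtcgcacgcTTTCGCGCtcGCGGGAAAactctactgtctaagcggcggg
Uhrf1: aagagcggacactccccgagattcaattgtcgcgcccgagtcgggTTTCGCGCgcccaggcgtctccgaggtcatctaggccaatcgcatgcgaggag
E2f3: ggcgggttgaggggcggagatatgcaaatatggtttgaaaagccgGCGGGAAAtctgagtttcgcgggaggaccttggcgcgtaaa
Mcm6: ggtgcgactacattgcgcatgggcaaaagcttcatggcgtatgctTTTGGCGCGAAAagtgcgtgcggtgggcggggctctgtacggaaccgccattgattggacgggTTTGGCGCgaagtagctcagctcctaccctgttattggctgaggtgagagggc

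Among genes of origin licensing 3 of 14 tested members were higher in Egfr fl/fl, 0 in Met fl/fl (18.6% and 22.8% of all genes). The median difference was -0.095. Cdc6, an ATPase that helps to load the Mcm ring, read 7.87, 8.11 and 7.54 in Egfr fl/fl against 7.10, 6.65 and 6.89 in Met fl/fl. The groups did not overlap, and Cdc6 was 1.94-fold higher in Egfr fl/fl (-0.96 ± 0.21, adjusted p = 0.00527). With Egfr fl/fl replicate 3 alone the difference was -0.68 (adjusted p = 0.0873). Mcm3, a subunit of the ring, read 7.66, 7.73 and 7.95 in Egfr fl/fl against 6.72, 7.02 and 7.10 in Met fl/fl. It was 1.79-fold higher in Egfr fl/fl (-0.84 ± 0.19, adjusted p = 0.00576), with no overlap, and passed in all 19 alternatives run. Its partners Mcm2, Mcm4 and Mcm5 differed less, by 0.10, 0.003 and 0.15, with adjusted p-values of 0.608, 0.987 and 0.304. The partners Mcm6 and Mcm7 are described below. Mcm4, for instance, read 11.28, 11.34 and 11.28 in Egfr fl/fl against 11.37, 11.26 and 11.28 in Met fl/fl, with overlap.

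Mcm7, a further subunit of the ring, split the Egfr fl/fl arrays. It read 7.84 and 8.08 on replicates 1 and 2, 5.06 on replicate 3, and 5.12, 4.61 and 4.74 in Met fl/fl. Replicate 3 thus lay among the Met fl/fl values. By its only probe, Mcm7 was at least 3.97-fold higher in the Egfr fl/fl samples (fitted -2.17 ± 0.64, adjusted p = 0.0218), with detection on 1 Met fl/fl array. The difference was -3.09 without replicate 3 (adjusted p = 1.37e-07) and -0.22 with replicate 3 alone (0.540), so the call rests on replicates 1 and 2. It also ended when any other array was left out, with adjusted p-values of 0.0840 and 0.0722 without Egfr fl/fl replicates 1 and 2, and of 0.0524, 0.0686 and 0.0753 without Met fl/fl replicates 1, 2 and 3.

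Mcm6, the remaining subunit, gave different answers by probe, and is described by probe because of the values seen. Its brightest probe over all arrays read 9.40, 9.40 and 10.11 in Egfr fl/fl against 9.29, 9.55 and 9.16 in Met fl/fl (-0.31 ± 0.21, adjusted p = 0.262). The second read 9.16, 9.12 and 9.49 against 9.32, 9.17 and 9.07 (-0.07, adjusted p = 0.743). On both of these probes the groups overlapped. The third, ILMN_1217331, read 10.53, 10.51 and 10.43 in Egfr fl/fl against 4.63, 4.59 and 5.16 in Met fl/fl, where 1 array detected it. That is at least 44.4-fold higher in the Egfr fl/fl samples (fitted -5.70 ± 0.20, adjusted p = 3.32e-08), and Egfr fl/fl replicate 3 read like replicates 1 and 2. The probe passed the detection filter through the Egfr fl/fl arrays, which favours a difference towards Egfr fl/fl, so its p-value is no independent support. The deposited intensities of this probe were 1176, 1208 and 1556 units in Egfr fl/fl against 1.76, -0.334 and 15.8 units in Met fl/fl. Replicate 3 of Egfr fl/fl moved this little: the fitted difference was -5.68 when it was left out and -5.70 when it stood alone for its group. For 2141 genes with more than 1 tested probe, the median gap between the log2 differences of a gene's probes was 0.33, and for Mcm6 the fitted differences ran from -0.07 to -5.70, the latter against values near the detection limit. The sources used here do not give where the probes lie in the transcript, and the cause of the disagreement was not tested. The Mcm6 promoter printed above holds 3 E2F words, of which a pair overlaps.

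**Figure D3:**
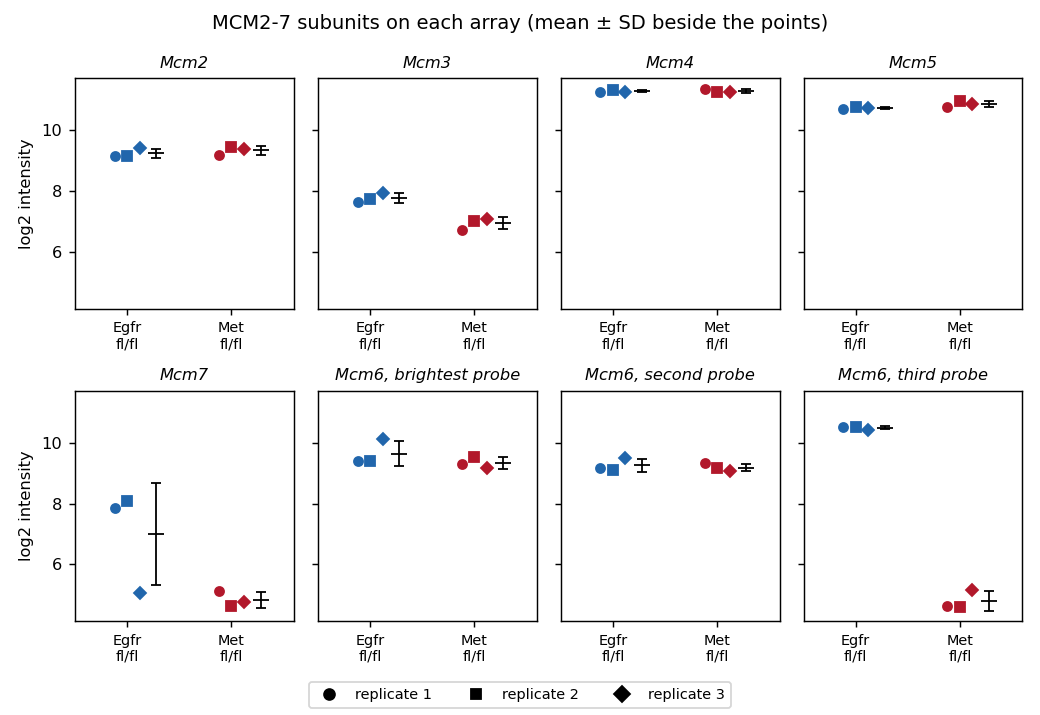
Log2 intensity of the probes for Mcm2 to Mcm7 on each array (points, shape by replicate; 1 shared vertical axis), with group mean ± SD; Mcm6 is shown by each of its 3 tested probes. The third Mcm6 probe averages 10.49 in Egfr fl/fl and lies near the detection limit in Met fl/fl, while the other Mcm6 probes overlap between groups, and Mcm7 on Egfr fl/fl replicate 3 lies at the Met fl/fl level.

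The other licensing genes did not pass by their brightest probes. Among subunits of the origin recognition complex, Orc5l differed by 0.43 (adjusted p = 0.0630), and its second probe passed as higher in Met fl/fl at 0.64 (0.0142). Orc6l differed by -0.64 (adjusted p = 0.0762), Orc4l by -0.51 (0.0647), Orc1l by 0.31 (0.228) and Orc3l by -0.19 (0.455). Orc2l was detected on at most 2 arrays and was not tested. Cdt1, which brings the Mcm ring to origins, read 9.90, 9.80 and 10.14 in Egfr fl/fl against 9.87, 10.11 and 10.04 in Met fl/fl (0.06, adjusted p = 0.778). Its inhibitor Gmnn, detected on 2 Egfr fl/fl and 3 Met fl/fl arrays, differed by 0.13 (0.517).

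Of 4 tested genes that activate the helicase 1 was higher in Met fl/fl, 0 in Egfr fl/fl (22.8% and 18.6% of all genes). The median was 0.19. Gins4, a subunit of the GINS complex, read 9.16, 9.29 and 9.20 in Egfr fl/fl against 10.07, 9.83 and 9.85 in Met fl/fl. The arrays of each group lay close together, and Gins4 was 1.62-fold higher in Met fl/fl (0.70 ± 0.13, adjusted p = 0.00228), a call kept in all 19 alternatives run. The RefSeq table also lists the name Gins4 as a synonym of Gins1, and Gins1 and Gins2 had no probe under those symbols. Cdc45l differed by 0.28 (adjusted p = 0.228), Gins3 by 0.11 (0.643) and Mcm10, which acts as the helicase starts, by 0.04 (0.845).

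Among 6 tested polymerase genes 1 was higher in Met fl/fl, 2 in Egfr fl/fl (22.8% and 18.6% of all genes). Pole, the catalytic subunit of the leading-strand polymerase epsilon, read 6.62, 6.69 and 7.13 in Egfr fl/fl against 7.67, 7.39 and 7.60 in Met fl/fl, a difference of 0.74 ± 0.20 (adjusted p = 0.0153). Pold2, an accessory subunit of polymerase delta, read 8.88, 8.84 and 9.33 in Egfr fl/fl against 8.30, 8.50 and 8.36 in Met fl/fl (-0.63 ± 0.17, adjusted p = 0.0144). Neither gene overlapped between groups, and they moved in opposite directions. Prim1, the catalytic primase subunit, read 5.69, 5.46 and 5.21 in Egfr fl/fl against 4.98, 5.01 and 4.73 in Met fl/fl, where 2 arrays detected it, so that it was at least 1.39-fold higher in the Egfr fl/fl samples (fitted -0.55 ± 0.18, adjusted p = 0.0328). The catalytic subunit Pold1 differed by 0.19 (0.419), Pola2 of polymerase alpha by 0.14 (0.493) and the second primase subunit Prim2 by 0.02 (0.973). Pola1 and Pole2 were detected on no array and were not tested. The call for Prim1 was lost without any of the arrays except Egfr fl/fl replicate 3 (adjusted p of 0.120 and 0.0733 without Egfr fl/fl replicates 1 and 2, and of 0.0613, 0.0581 and 0.120 without Met fl/fl replicates 1, 2 and 3). The same call was lost with no detection filter (0.1). That for Pole was lost without Egfr fl/fl replicate 1 (0.0629) or 2 (0.0518) or Met fl/fl replicate 1 (0.0532) or 3 (0.0614), and that for Pold2 without Met fl/fl replicate 3 (0.0553); Pole (0.115) and Pold2 (0.119) also lost it with median scaling.

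Genes of the clamp, its loader, single-strand binding and strand joining were all detected. Of these 11, 3 were higher in Met fl/fl, 2 in Egfr fl/fl (22.8% and 18.6% of all genes). Pcna, the sliding clamp that holds polymerases on DNA, read 7.85, 7.06 and 7.15 in Egfr fl/fl against 6.44, 6.13 and 6.75 in Met fl/fl. It was 1.89-fold higher in Egfr fl/fl without overlap (-0.92 ± 0.26, adjusted p = 0.0177), and Egfr fl/fl replicate 1 was the highest array. The subunits of the clamp loader, replication factor C, divided. Rfc1, the large subunit, read 8.03, 8.23 and 8.61 in Egfr fl/fl against 9.14, 8.94 and 8.79 in Met fl/fl (0.67 ± 0.18, adjusted p = 0.0159). Rfc5 read 8.52, 8.62 and 8.53 in Egfr fl/fl against 8.84, 9.05 and 8.96 in Met fl/fl (0.39 ± 0.14, adjusted p = 0.0464). Rfc3 read 7.50, 7.51 and 7.09 in Egfr fl/fl against 6.75, 6.77 and 6.46 in Met fl/fl (-0.71 ± 0.20, adjusted p = 0.0182). The groups overlapped for none of these 3 subunits, with Rfc1 and Rfc5 higher in Met fl/fl and Rfc3 higher in Egfr fl/fl. Rfc2 differed by 0.27 (0.132) and Rfc4 by -0.22 (0.435).

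Rpa1, the large subunit of the single-strand binding protein, varied little within each group, at 11.17, 11.06 and 10.99 in Egfr fl/fl against 11.54, 11.63 and 11.66 in Met fl/fl. It was 1.45-fold higher in Met fl/fl (0.54 ± 0.11, adjusted p = 0.00375). The smaller subunits Rpa2 and Rpa3 differed by -0.55 (0.0673) and -0.16 (0.654). The flap nuclease Fen1 differed by 0.38 (0.0881) and the ligase Lig1, which seals Okazaki fragments, by 0.32 (0.122). Median scaling ended the calls for Rpa1 (0.0971), Rfc1 (0.0927), Rfc3 (0.0977) and Rfc5 (0.362). The call for Rfc5 also ended with cyclic loess (0.0930), with no detection filter (0.107) and with no variance trend (0.0533). Without Egfr fl/fl replicate 1 the adjusted p was 0.0700 for Pcna, 0.0724 for Rfc1, 0.0693 for Rfc3 and 0.135 for Rfc5, without Egfr fl/fl replicate 2 it was 0.0632 for Rfc3 and 0.0819 for Rfc5, without Met fl/fl replicate 1 it was 0.0525 for Pcna and 0.0574 for Rfc1, without replicate 2 it was 0.0815 for Pcna, 0.0547 for Rfc1 and 0.182 for Rfc5, and without replicate 3 it was 0.0820 for Rfc3 and 0.125 for Rfc5.

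Of the 5 genes of nucleotide supply 1 was higher in Met fl/fl, against 22.8% of all genes. Tk1, the thymidine kinase of S phase, read 7.97, 8.09 and 8.14 in Egfr fl/fl against 8.73, 8.71 and 8.52 in Met fl/fl, 1.50-fold higher without overlap (0.58 ± 0.15, adjusted p = 0.0116). Its second tested probe overlapped and gave 0.03 (adjusted p = 0.932). The subunits of ribonucleotide reductase, which makes deoxynucleotides, differed by 0.13 for Rrm1 (0.495) and 0.18 for Rrm2 (0.423), and the second Rrm2 probe gave -0.16 (0.517). The thymidylate synthase Tyms differed by -0.28 (0.325) and Dut, which breaks down dUTP, by -0.45 (0.0901). The call for Tk1 ended with median scaling (0.173), with the mean of its probes (0.31, adjusted p = 0.135), and without Egfr fl/fl replicate 1 (0.0531) or Met fl/fl replicate 2 (0.0587).

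The 3 genes of chromatin assembly and maintenance each separated the groups, as did 52.0% of all genes tested. Chaf1a, the large subunit of the chromatin assembly factor that places histones behind the fork, read 7.96, 7.70 and 8.30 in Egfr fl/fl against 8.62, 8.56 and 8.48 in Met fl/fl (0.57 ± 0.18, adjusted p = 0.0299). Its partner Chaf1b ran the other way, with 10.03, 10.12 and 10.11 in Egfr fl/fl against 9.58, 9.82 and 9.83 in Met fl/fl, and missed the threshold (-0.34 ± 0.13, adjusted p = 0.0549). Uhrf1, which guides maintenance DNA methylation to new strands, read 11.05, 11.16 and 11.39 in Egfr fl/fl against 10.47, 10.79 and 10.67 in Met fl/fl, 1.47-fold higher in Egfr fl/fl (-0.55 ± 0.14, adjusted p = 0.00940). Median scaling ended the calls for Uhrf1 (0.123) and Chaf1a (0.188). The call for Chaf1a was also lost without Egfr fl/fl replicate 1 (0.0864) or 2 (0.116) and without Met fl/fl replicate 1 (0.0779), 2 (0.0924) or 3 (0.0708).

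Several probes were tested for 15 genes, of which 10 had no probe past the threshold and 5 had some past it and some not: Ccnd3, Rb1, Tk1, Orc5l and Mcm6. Over all probes tested 39.8% passed. In each of these 5 genes 1 probe passed, so probes could not pass in opposite directions. The median gap between the differences of a gene's probes was 0.35, and apart from Mcm6 the largest was 0.82.

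Other genes of the same pathway, from lists written beside the set, also divided. Of 68 listed 44 were tested, 5 were higher in Met fl/fl, 11 in Egfr fl/fl (22.8% and 18.6% of all genes). The median was -0.092. Among regulators of G1/S entry, Myc, a transcription factor of growth, differed by -1.23 ± 0.23 (adjusted p = 0.00198) and Cdc25a, the phosphatase that activates Cdk2, by -1.07 ± 0.20 (0.00224), both higher in Egfr fl/fl. Tfdp1, the dimer partner of E2F factors, was 1.53-fold higher in Egfr fl/fl (-0.62 ± 0.15, adjusted p = 0.00872). Of 6 tested CDK inhibitors, which hold back the G1 kinases, Cdkn2b (-1.11, adjusted p = 0.000144) and Cdkn2a (-0.89, 0.00592) were higher in Egfr fl/fl and Cdkn2c (0.78, 0.00340) higher in Met fl/fl.

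Of 13 tested fork and origin factors 4 were higher in Met fl/fl, 3 in Egfr fl/fl (22.8% and 18.6% of all genes). Pold4, a small subunit of polymerase delta, differed by 1.06 (adjusted p = 0.000814), Chtf18, of the alternative clamp loader, by 1.04 (0.00319) and the helicase Recql4 by 0.96 (0.00570). Pole4, a small subunit of polymerase epsilon, differed by -0.90 (0.00751), the topoisomerase Top1 by -0.63 (0.0344) and Clspn, a checkpoint mediator at forks, by -0.49 (0.0313). The other small subunits, Pold3 (-0.08, adjusted p = 0.706) and Pole3 (-0.03, 0.913), did not pass. Of 10 further genes of nucleotide supply 0 were higher in Met fl/fl, 3 in Egfr fl/fl (22.8% and 18.6% of all genes). These were the folate enzyme Shmt1, the deoxycytidylate deaminase Dctd (-0.65, adjusted p = 0.00803) and Impdh2 of guanine nucleotide synthesis (-0.41, 0.0127). Shmt1 was at least 1.86-fold higher, with 1 Met fl/fl array detecting it, so that it too passed the filter through Egfr fl/fl. Of 3 tested genes of histone supply and maintenance methylation 0 passed with limma in either direction, against 41.4% of all genes.

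Genes of mitosis, which act after replication is complete, stood on 1 side. Of 10 tested 9 were higher in Met fl/fl, 0 in Egfr fl/fl (22.8% and 18.6% of all genes), and the median difference was 1.57. The kinesin Kif11 differed by 1.81 ± 0.30 (adjusted p = 0.000995), Cdc20, which switches on the anaphase-promoting complex, by 1.66 ± 0.17 (5.07e-05) and the kinase Plk1 by 1.61 ± 0.19 (0.000109). Over the 20 settings run 8 or 9 of these genes were higher in Met fl/fl. Replication and mitosis genes were not tested against each other.

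**Figure D4:**
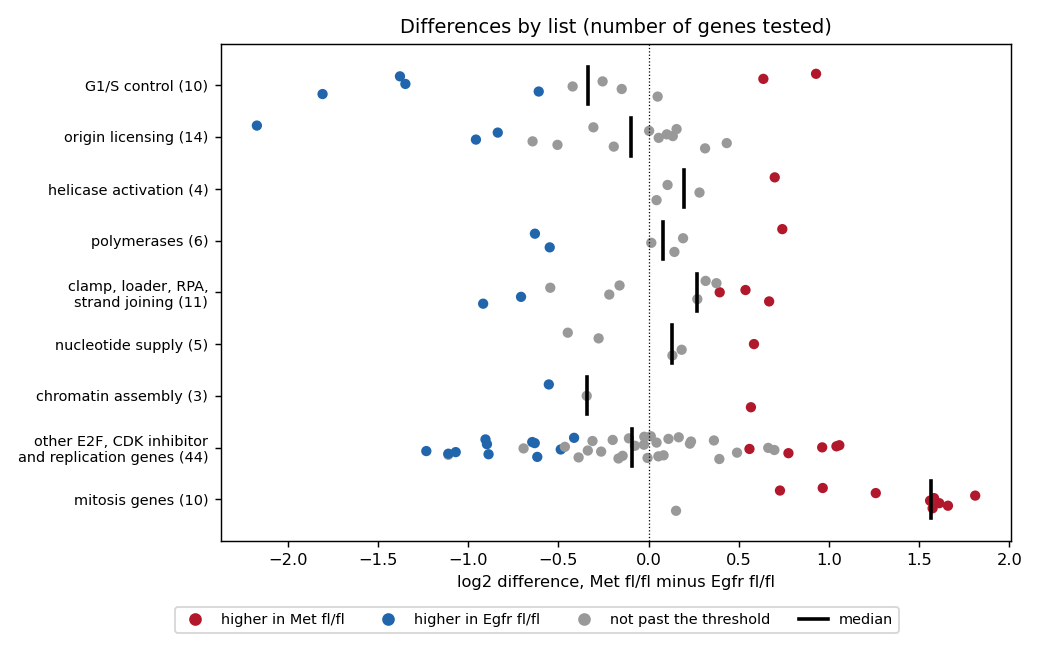
Log2 difference (Met fl/fl minus Egfr fl/fl, horizontal axis) of each tested gene (points, coloured by call) in the 7 steps, in the other genes of the pathway and in mitosis genes, with the median of each list as a bar. Medians of the 7 steps lie between -0.34 and 0.27, and that of the mitosis genes at 1.57.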

How the data were processed

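RNA of 6 samples was measured on Illumina bead arrays. GenomeStudio 2011.1 is the software named, per the submitters' processing notes; the sources used here do not give the annotation version. The deposited non-normalized intensity is linear, with a background subtracted (26.9% to 31.1% of values were below 0). The deposited detection p-value ranks each probe among about 798 negative controls. The authors' normalized matrix, a linear intensity, served as an alternative. The work here used limma 3.58.1 (R 4.3.3): normexp background correction, with the negative controls' mean and SD inferred from detection p-values, an offset of 16, which understates changes of dim probes, then quantile normalization and log2. Probes detected on at least 3 arrays, 11578, entered lmFit and eBayes (variance trend on), and Benjamini-Hochberg adjustment ran over all of them (threshold 0.05). A gene was represented by its brightest tested probe over all arrays. The fit was also run on simulated data with independent noise and few changed probes. Those settings differ from these data, so that run does not test the calls made here. Slide and processing batch are not in the labels, so neither can be told apart from genotype. The number of arrays limits the precision.

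The members and lists were chosen with earlier results of these data known. Values on every array were given for up to 6 members past the threshold in each direction per step, and up to 3 genes in each direction were named from each further list. Samples sharing a replicate number did not deviate together throughout (correlations 0.237, -0.145 and 0.320), so the numbers were not treated as pairs.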

Additional observations from a re-analysis of the deposited data

How the results depend on the processing

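In 19 alternatives the 21 genes past the threshold gave 396 values, of which 330 kept the call, 66 kept the direction without the call and 0 reversed. Ccnd2, E2f1, E2f3, Mcm3 and Gins4 kept the call in every alternative run. The count higher in Met fl/fl was 9, and 2 with median scaling, 14 with array weights and 5 when replicate 3 stood alone for Egfr fl/fl. That last setting was added after seeing the data and gives the lone array the spread of the other group. Leaving out 1 array gave 4 to 10. With replicate 3 alone for Egfr fl/fl, the difference shrank to 0.43 for Pole, -0.29 for Prim1, -0.74 for Pcna and 0.35 for Rfc1. It shrank to -0.45 for Rfc3, 0.51 for Tk1 and 0.26 for Chaf1a. Ccnd2, Ccne2, E2f1, Cdc6 and Mcm7 shrank too, and the other genes past the threshold grew. The count higher in Egfr fl/fl was 12, and 22 with array weights and 7 with Egfr fl/fl replicate 3 alone. Leaving out 1 array gave 8 to 17. Over all genes 3580 passed, and 2383 with median scaling, 5317 with array weights and 2437 with Egfr fl/fl replicate 3 alone. With the replicate number as a block the counts were 9 for Met fl/fl and 13 for Egfr fl/fl, 20 of the 21 calls were kept, Rfc5 lost its call (adjusted p = 0.0625), and Egfr fl/fl replicate 2 deviated most like Met fl/fl replicate 1 (0.340), not its own number. The cause of these changes was not tested. Dim probes near the detection limit, such as those of Gmnn and Prim1, have compressed differences.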
